A study of Gallus gallus with 6 samples.

Results

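The W chromosome is the sex chromosome that only female birds carry, and the genes described here are those of the chicken W that were transcribed in dorsal neural folds. The deposited table lists 124 genes whose first position is on chromosome W, out of 24356 genes in all. These genes were chosen by their summed read counts. Of the 124, 40 had at least 20 read counts summed over the 6 libraries and are the genes followed below, 46 had 1 to 19 counts and 38 had none. The just included genes were ENSGALG00000049073.1 with 21 counts and ENSGALG00000043838.2 with 22 counts, and the nearest left out were ENSGALG00000048665.1 with 19 counts and ENSGALG00000053933.1 with 14 counts. The 40 genes held 80036 counts together, against 258 counts in the 84 genes left out.

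The libraries come from single dorsal neural folds of Leghorn White chicken embryos at Hamburger-Hamilton stage 9, each made from poly(A) RNA. One fold of every embryo carried a morpholino against TGFB1, the founding secreted member of the TGF-beta family of signals, and the other fold of the same embryo carried the GTBlue-Control morpholino. Both morpholinos were given at 1 mM. Morpholinos are synthetic antisense molecules that bind a transcript and keep it from being translated or spliced, so they can lower a protein without changing its transcript count. There are 3 TGFB1 morpholino libraries and 3 control morpholino libraries, which form 3 pairs, each from 1 embryo. The labels give the genotype as TGFB1 knockdown for the TGFB1 morpholino libraries and as WT for the control morpholino libraries. The folds hold neural crest precursors together with other cells of the dorsal neural tube, and in such bulk RNA fewer cells of a type and less RNA per cell cannot be told apart. The deposited table gives IDs alone, and 0 of the 24356 Ensembl IDs matched the RefSeq gene table. Neither TGFB1 nor markers of cell types could therefore be looked up, so the cell type was not checked. The knockdown was not checked either, and the transcript count of TGFB1 alone need not show it.

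In birds the female is the ZW sex and the male the ZZ sex. The W and Z descend from a common pair of chromosomes, and most single-copy genes that remain on the W have a related copy on the Z, called a gametolog. The W chromosome is otherwise rich in repeats and endogenous retroviral sequence. The retained W genes are widely transcribed across tissues, and many encode regulators whose dosage matters, which is one reason proposed for their survival on a decaying chromosome. HINTW, a multicopy W gene of the histidine triad nucleotide-binding family, and W copies of CHD1 and SMAD2 are examples known from chicken. Which IDs of the table carry these names is not given in the files.

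The sex of the embryos is not part of the labels and was read from the W counts, which are the values that define this gene set. The 40 genes together reached 2741 and 2671 CPM (read counts scaled to library size with TMM factors) on the TGFB1 morpholino side of pairs 2 and 3, and 2331 and 2366 CPM on their control side. The TGFB1 morpholino library of pair 1 held 15.1 CPM and its control library 22.0 CPM. These rest on 138 counts in the TGFB1 morpholino library (exact Poisson 95% interval 116 to 163) and 270 counts in the control library (239 to 304), intervals that cover counting error only. Z-linked genes took 2.41% to 2.52% of all counts in pairs 2 and 3, against 3.61% and 3.70% in pair 1. Pairs 2 and 3 are therefore described as female (ZW) and pair 1 as male (ZZ), with no test of that difference. Total counts per library lay between 5350165 and 12256492.

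**Figure D1:**
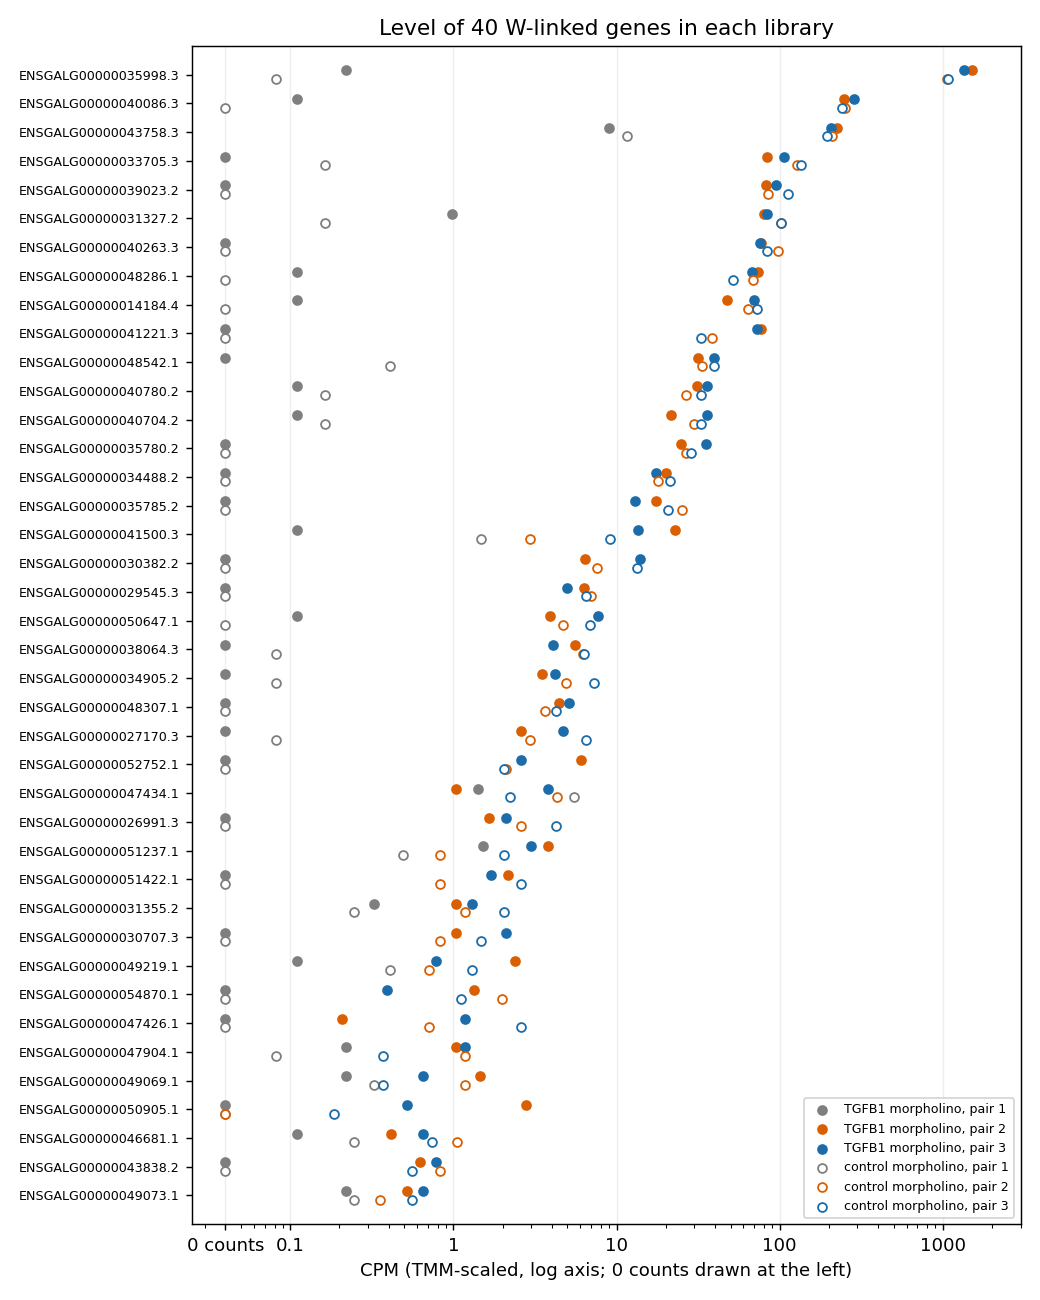
Level of each of the 40 W-linked genes (rows, ordered by mean level in pairs 2 and 3) in CPM on a log axis, with filled points for TGFB1 morpholino libraries, open points for control morpholino libraries and colours for pairs 1 to 3; libraries with 0 counts are drawn at the left edge. ENSGALG00000035998.3 lies between 1065 and 1515 CPM in the 4 libraries of pairs 2 and 3, and the grey points of pair 1 lie far to the left for all genes at the top of the plot and among the others for several at the bottom.

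Transcription from the W was carried by few genes. ENSGALG00000035998.3, on the plus strand of chromosome W from 1840623 to 1896773 in galGal6 with 6 separate exon blocks, had 1515 and 1348 CPM on the TGFB1 morpholino side of pairs 2 and 3, and 1065 and 1077 CPM on the control side. It made up 55.3% and 50.5% of the counts of the 40 genes on the TGFB1 morpholino side, against 45.7% and 45.5% on the control side. Among all genes of the table it ranked 38 and 56 by count in the TGFB1 morpholino libraries of pairs 2 and 3, and 78 and 73 in the control libraries. In each of these pairs both its level and its share were higher on the TGFB1 morpholino side.

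The next genes were several times lower. ENSGALG00000040086.3 (minus strand, 4704235 to 4724025, 18 exon blocks) had 249.1 and 287.7 CPM on the TGFB1 morpholino side and 252.3 and 240.4 CPM on the control side of pairs 2 and 3. ENSGALG00000043758.3 (plus strand, 1391452 to 1417746, 13 exon blocks) had 225.6 and 206.5 CPM on the TGFB1 morpholino side and 210.4 and 194.1 CPM on the control side. ENSGALG00000040086.3 was 1.20-fold higher on the TGFB1 morpholino side of pair 3, and the other differences between the sides of these genes were at most 1.07-fold. Between the embryos the log2 differences of pair 3 from pair 2 lay between -0.13 and 0.21.

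ENSGALG00000033705.3 (minus strand, 3607613 to 3662450, 18 exon blocks) averaged 113.7 CPM over the 4 libraries, and ENSGALG00000039023.2 (plus strand, 4790077 to 4947834), which has the most exon blocks of the set with 48, averaged 93.7 CPM. ENSGALG00000031327.2 (4991077 to 5068104), ENSGALG00000040263.3 (2397236 to 2407132), ENSGALG00000048286.1 (1871809 to 1874957), ENSGALG00000014184.4 (6650828 to 6715914) and ENSGALG00000041221.3 (1839719 to 1840514) followed with means of 92.3, 83.5, 65.4, 63.4 and 55.1 CPM in that order. The 10 genes with the most counts in a library held 91.6% and 90.3% of the W-linked counts on the TGFB1 morpholino side of pairs 2 and 3, and 90.5% and 89.2% on the control side. Below them the levels fell off steadily, with 18 genes at a mean of at least 10 CPM, 16 between 1 and 10 CPM and 6 under 1 CPM.

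**Figure D2:**
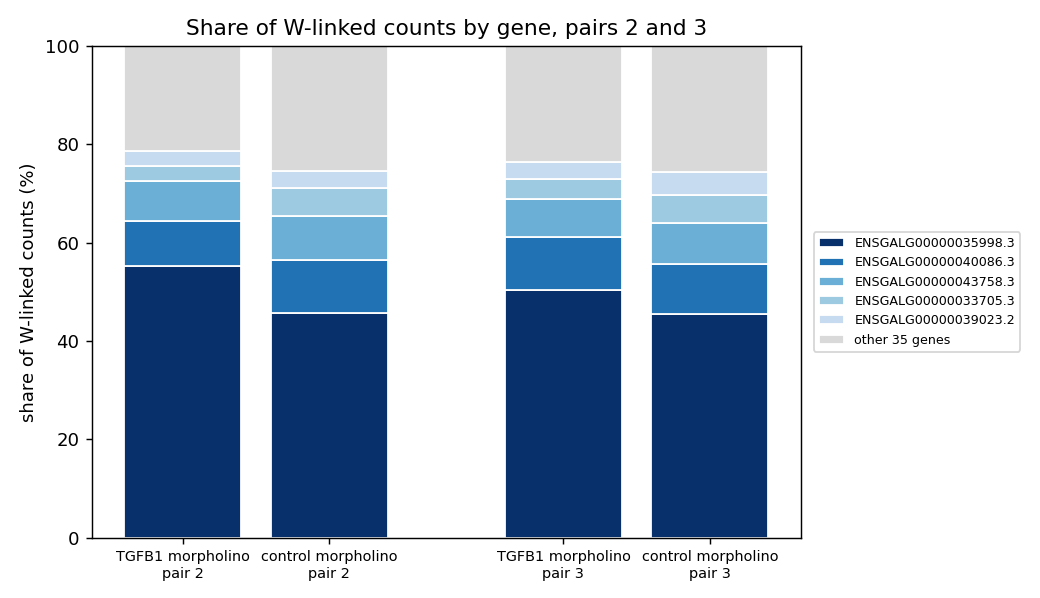
Share of the counts of all 40 W-linked genes (%) taken by the 5 genes with the highest mean level and by the other 35, in the TGFB1 morpholino and control morpholino libraries of pairs 2 and 3, 1 library per bar. ENSGALG00000035998.3 takes 55.3% and 50.5% in the TGFB1 morpholino bars and 45.7% and 45.5% in the control bars.

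Counts grow with exon length, so the order changed when levels were set per kilobase of merged exon (RPKM). ENSGALG00000035998.3 stayed first with a mean of 561.6 RPKM over the 4 libraries of pairs 2 and 3. ENSGALG00000048286.1, with only 327 bases of exon, came second with 200.1 RPKM, followed by ENSGALG00000040086.3 with 114.5, ENSGALG00000041221.3 with 69.2 and ENSGALG00000040263.3 with 61.7 RPKM. ENSGALG00000039023.2, whose merged exons span 8573 bases, dropped from rank 5 by CPM to rank 14 by RPKM, with 10.9 RPKM.

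Of these, ENSGALG00000035998.3, ENSGALG00000048286.1 and ENSGALG00000041221.3 are neighbours. ENSGALG00000041221.3 is a single exon of 796 bases on the minus strand that ends 108 bases before the start of ENSGALG00000035998.3 on the plus strand, so the genes point away from each other. ENSGALG00000048286.1 lies on the minus strand inside the span of ENSGALG00000035998.3. These 3 genes, grouped after their values were seen, held 60.7% and 55.7% of the W-linked counts on the TGFB1 morpholino side of pairs 2 and 3, and 50.3% and 49.1% on the control side. The strand setting of the counting is not given in the sources used here, so the level of ENSGALG00000048286.1 cannot be told apart from reads of the gene around it.

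The genes are spread along the W from position 787 to 6715914, with 24 on the plus and 16 on the minus strand. By whole span, introns included, 15 of the 40 genes overlap another W-linked gene, 11 of them one on the opposite strand. Overlap of exons was not computed, so it is not known how far the levels of these 15 genes are affected. ENSGALG00000040263.3 contains 4 short genes of 65 to 68 bases on its own strand, which held at most 13 counts each. Near-identical copies on the W or Z may also share or lose reads in the counting, since the treatment of reads that map to several places is not given in the sources used here.

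The set divides by gene structure. Of the 124 listed W genes 88 consist of a single exon block, and of the 40 followed here 10 do. Of these 10, 9 have a length that is a multiple of 3, as have 11 of the 30 genes with several blocks. The 10 single-block genes held 2.78% of the W-linked counts in pairs 2 and 3, with a median of 1.23 CPM, and the 30 others held 97.2% with a median of 15.6 CPM. A single gene with 1 block reached 10 CPM, ENSGALG00000041221.3, which is also the only one of the 10 whose length is no multiple of 3.

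The counts that remained in pair 1 were not an even fraction of the female pattern. Of its 408 counts in these genes, ENSGALG00000043758.3 held 225 (55.1%) and ENSGALG00000047434.1 held 80, so that both made up 74.8%. The leading 5 genes held 87.0%. Another 17 of the 40 genes had no count in either library of pair 1, and 12 had 1 to 3 counts.

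Several of the most abundant genes had few or no counts in pair 1. ENSGALG00000035998.3 had 39879 counts in pairs 2 and 3 together and 3 counts in pair 1, and ENSGALG00000040086.3 had 8061 and 1. ENSGALG00000039023.2 and ENSGALG00000040263.3 had no count in pair 1, and were at least 669-fold and 597-fold higher in pairs 2 and 3 than the level of 3 counts over both libraries of pair 1. ENSGALG00000041221.3 likewise had none, which puts it at least 394-fold higher in pairs 2 and 3.

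ENSGALG00000043758.3 was the exception among the abundant genes. Its 206.5 to 225.6 CPM on the TGFB1 morpholino side and 194.1 to 210.4 CPM on the control side of pairs 2 and 3 stood against 8.95 CPM in the TGFB1 morpholino library and 11.7 CPM in the control library of pair 1, where it rested on 82 and 143 counts. The level in pair 1 was thus 4.92% of that in pairs 2 and 3, and in CPM it was the highest in pair 1 of all 40 genes. ENSGALG00000041500.3 (2356561 to 2358300, minus strand, 4 exon blocks) came closest in percentage, at 6.52%, with 1 count in the TGFB1 morpholino library and 18 in the control library of pair 1.

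At least 10% of the female level was found in pair 1 for 8 genes, and all 8 were low, with means of at most 2.85 CPM in pairs 2 and 3. They held 0.438% of the W-linked counts in pairs 2 and 3. The rest had at most 6.52%. ENSGALG00000047434.1 (3570685 to 3580610, minus strand, 3 exon blocks) had a level in pair 1 that lay within the female range on the TGFB1 morpholino side and above it on the control side, with 1.03 and 3.79 CPM on the TGFB1 morpholino side of pairs 2 and 3 and 1.42 CPM on that of pair 1, and 4.34 and 2.22 CPM on the control side of pairs 2 and 3 and 5.46 CPM on that of pair 1.

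The others of these 8 were ENSGALG00000049073.1 at 44.5%, ENSGALG00000051237.1 at 41.6%, ENSGALG00000049069.1 at 29.9%, ENSGALG00000046681.1 at 24.7% and 3 more between 16.0% and 20.6%. Of the 8, 5 have a single exon block. Of all 10 single-block genes, however, 5 had no count in pair 1, as had 12 of the 30 genes with several blocks. The single-block genes held 41 of the 408 counts of the 40 genes in pair 1, and those with several blocks held 367. A link between block number and counts in pair 1 was not tested. Pair 1 supplied 0.510% of the counts of the 40 genes, against 20.2% of those of the 84 W genes with under 20 counts and 40.5% of those of the whole table. The 40 and the 84 genes were split by summed counts, so genes high in pairs 2 and 3 fall among the 40. The contrast between their shares thus follows at least in part from that cut, and it was not tested. With 16 to 88 counts per gene in pairs 2 and 3, the percentages of these 8 genes are loose.

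**Figure D3:**
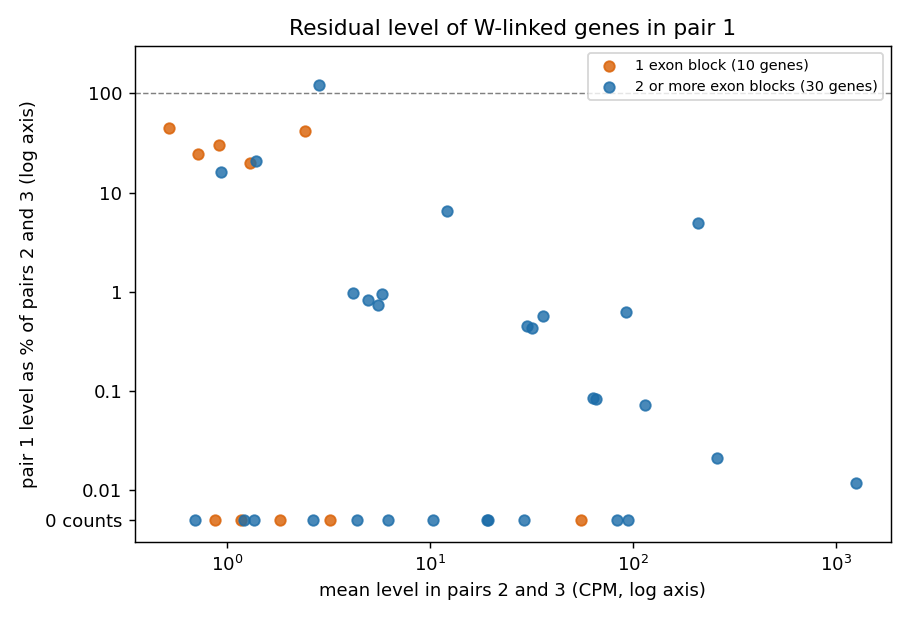
Mean level in both libraries of pair 1 as a percentage of the mean over the 4 libraries of pairs 2 and 3 (log axis, genes with 0 counts in pair 1 drawn at the bottom) against the mean CPM in pairs 2 and 3 (log axis), for 10 W-linked genes with 1 exon block and 30 with more. Genes at or above 10% all have under 3 CPM, ENSGALG00000047434.1 is the single point above the dashed line of equal levels, at 120.8%, and ENSGALG00000043758.3 is the point at 209.2 CPM and 4.92%. The level on the horizontal axis is also the denominator of the percentage, so the axes are not independent.

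Setting the fold with the TGFB1 morpholino against the control fold of its own embryo asks which W-linked transcripts changed with the morpholino. Of the 40 genes 30 passed the filter on low counts and were tested with edgeR's quasi-likelihood test in a fit of all genes with the pair as a block. The filter asks for a minimum level in at least 3 libraries, so it kept genes largely by their level in females, down to a mean of 1.39 CPM in pairs 2 and 3. At a false discovery rate of 0.05 after Benjamini-Hochberg adjustment over all 12736 genes tested, 2 of the 30 W-linked genes rose on the TGFB1 morpholino side (6.67%), against 7.15% of all genes tested. None fell by edgeR, against 8.81% of all genes, and 3 were lower at an unadjusted p under 0.05, against 15.9% of all genes. DESeq2 called 1 of 30 higher, against 3.99% of all genes it tested, and 0 lower, against 6.85%. Pair 1 holds almost no W counts, so these shares set W-linked genes, measured mainly in pairs 2 and 3, against genes measured in all 3 pairs. The power to call a gene is therefore not the same on both sides of these comparisons. The median log2 fold change over the 30 genes was -0.10, and over all genes tested it was 0.0032.

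ENSGALG00000041221.3, the single-exon gene beside the start of ENSGALG00000035998.3, rose about 2-fold. It had 76.7 and 72.4 CPM on the TGFB1 morpholino side of pairs 2 and 3, against 38.3 and 33.0 CPM on the control side, and 0 counts in both libraries of pair 1. Both female TGFB1 morpholino libraries lay well above both female control libraries, and the control levels differed little between the embryos. The log2 fold change was 1.06 (SE 0.18), or 2.09-fold, with an adjusted p of 0.00215 by edgeR. It was 1.00 in pair 2 and 1.13 in pair 3. The 0 counts of pair 1 leave this gene 1 residual degree of freedom of its own, and the rest of the estimate of its spread comes from other genes. The call was lost with no replicate block, where the 0 counts of pair 1 count into each group's spread (log2 1.09, adjusted p = 0.67).

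ENSGALG00000051237.1 (4669320 to 4670792, plus strand, a single exon of 1473 bases) also passed, at a far lower level and only just. It had 1.53, 3.82 and 3.00 CPM on the TGFB1 morpholino side of pairs 1, 2 and 3, and 0.489, 0.822 and 2.04 CPM on the control side, from 98 counts in all. The TGFB1 morpholino side was higher in 3 of 3 pairs, but the control value of pair 3 lay above the TGFB1 morpholino value of pair 1. The fold change was 1.43 on the log2 scale with an SE of 0.46 (adjusted p = 0.0493 by edgeR). The gene passed in 6 of 11 alternatives, the looser cut of 0.1 on the main fit included. Among them were limma-voom (adjusted p = 0.0495) and edgeR without pair 1 (log2 1.37, adjusted p = 0.0388). It did not pass with other scalings, with no replicate block, with DESeq2 or without pair 2, with adjusted p-values of 0.0545 to 0.389. Its level in pair 1 was 41.6% of that in the females, and pair 1 was one of the pairs with a higher TGFB1 morpholino side (log2 ratio 1.29).

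**Figure D4:**
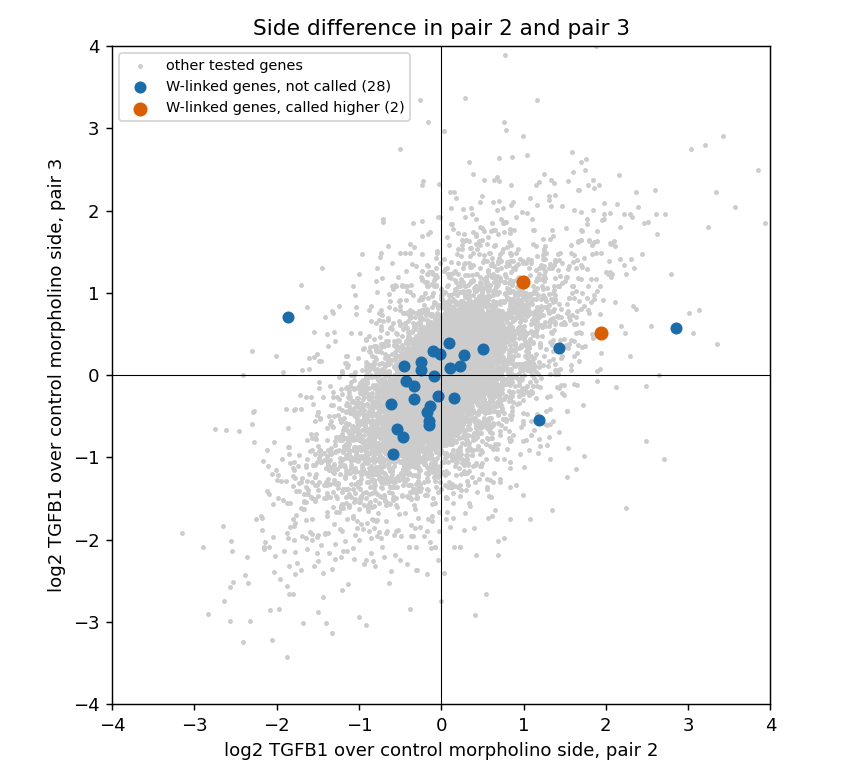
Log2 ratio of the TGFB1 morpholino over the control morpholino side in pair 2 (horizontal) and pair 3 (vertical) for the 30 W-linked genes tested and, in grey, the other genes tested, with values beyond 4 drawn at the edge. The W-linked genes called higher, ENSGALG00000041221.3 at 1.00 and 1.13 and ENSGALG00000051237.1 at 1.95 and 0.51, lie in the upper right, and most others lie near the centre of the grey cloud.

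Since pair 1 adds almost no W counts, the comparison rests on the embryos of pairs 2 and 3, and the fit was repeated on those 4 libraries. There 33 of the 40 genes were tested. Of these, 4 rose (12.1%, against 7.42% of all genes tested) and 2 fell (6.06%, against 10.4%). In this fit edgeR estimated an infinite prior weight, so each gene was set against the spread that all genes share at its level and not against its own. The adjusted p-values of this fit are therefore small even where the pairs disagree in size.

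The genes that joined the list included the most abundant. ENSGALG00000035998.3 was 1.42 and 1.25-fold higher on the TGFB1 morpholino side of pairs 2 and 3, with 1515 and 1348 CPM there and 1065 and 1077 CPM on the control side. In pairs 2 and 3 that came to a log2 fold change of 0.42 with an SE of 0.14 (adjusted p = 0.0267 by edgeR). With all 3 pairs it was 0.43 (SE 0.18) and did not pass (adjusted p = 0.131, unadjusted p = 0.0361).

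ENSGALG00000041500.3 was higher by very different amounts, with 22.7 and 13.6 CPM on the TGFB1 morpholino side of pairs 2 and 3, against 2.94 and 9.08 CPM on the control side. In pair 1 it had 0.109 CPM on the TGFB1 morpholino side, against 1.47 CPM on the control side, the opposite direction. In pairs 2 and 3 this gave a log2 fold change of 1.72 with an SE of 0.25 (adjusted p = 1.18e-09 by edgeR). With all pairs it was 1.09 with an SE of 0.59 (adjusted p = 0.23), with all pairs and no filter on low counts it was 1.08 and passed (adjusted p = 0.00165), and without pair 2 it was -0.33. The value without pair 2 includes pair 1, which ran the opposite way. Within the female pairs the log2 ratio was 2.86 in pair 2 and 0.57 in pair 3, so the value in pairs 2 and 3 rests largely on pair 2.

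The genes that fell in pairs 2 and 3 have several exon blocks and no more than 2 counts in pair 1. Both traits are common in the set. Of the 40 genes 30 have several blocks, 17 had 0 counts in pair 1 and 12 had 1 to 3. ENSGALG00000033705.3 had 84.2 and 106.2 CPM on the TGFB1 morpholino side, against 128.6 and 135.7 CPM on the control side, or -0.48 on the log2 scale with an SE of 0.15 (adjusted p = 0.0103 by edgeR). ENSGALG00000035785.2 (2140283 to 2214915, plus strand, 10 exon blocks) had 17.3 and 12.9 CPM on the TGFB1 morpholino side, against 25.4 and 20.6 CPM on the control side, or -0.60 on the log2 scale with an SE of 0.20 (adjusted p = 0.0188 by edgeR). For both genes each TGFB1 morpholino library of pairs 2 and 3 lay below both control libraries. These are the libraries of the fit that called them, which favours such a separation. With all 3 pairs and the filter on low counts neither passed by edgeR, with log2 fold changes of -0.50 (adjusted p = 0.0638) and -0.60 (adjusted p = 0.103). ENSGALG00000033705.3 did pass with all 3 pairs by limma-voom (log2 -0.51, adjusted p = 0.045) and by edgeR with no filter (log2 -0.51, adjusted p = 0.0367).

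**Figure D5:**
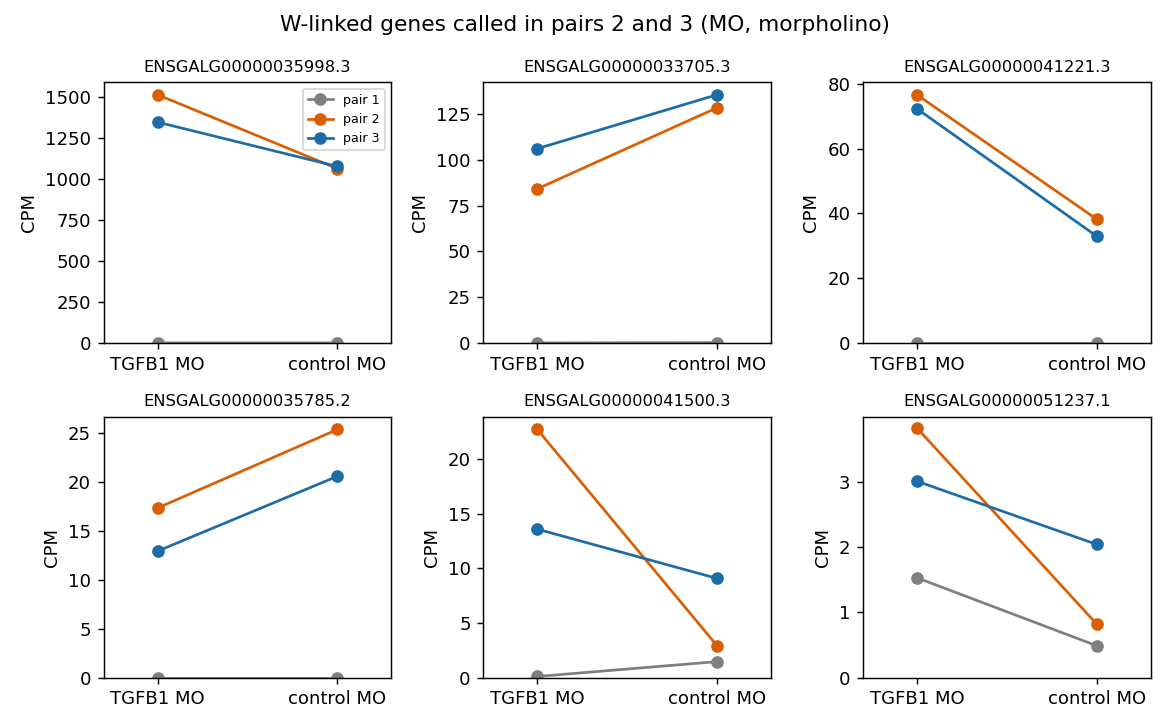
CPM on the TGFB1 morpholino side (left) and the control morpholino side (right) of each pair for the 6 W-linked genes called by edgeR in pairs 2 and 3, 1 line per embryo and a separate linear axis from 0 for each gene. The lines of pairs 2 and 3 run the same way in all 6 genes, and those of ENSGALG00000041500.3 end at 2.94 CPM in pair 2 and 9.08 CPM in pair 3 on the control side. The genes were picked by a fit on these pairs, which favours such agreement. The pair 1 line of ENSGALG00000041500.3 runs the other way, from 0.109 to 1.47 CPM.

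The other abundant W genes did not pass in either fit. ENSGALG00000040086.3 had a log2 fold change of 0.13 (SE 0.17), ENSGALG00000043758.3 of -0.019 (SE 0.14), ENSGALG00000039023.2 of -0.15 (SE 0.16) and ENSGALG00000031327.2 of -0.20 (SE 0.21) with all pairs. For ENSGALG00000031327.2 pair 1 ran the other way, from 11 counts (log2 ratio 1.63). Its TGFB1 morpholino libraries of pairs 2 and 3, at 80.5 and 84.3 CPM, lay below both control libraries, at 101.7 and 102.7 CPM. The fit on pairs 2 and 3 gave -0.31 (SE 0.15, adjusted p = 0.139 by edgeR). ENSGALG00000043758.3 was at 0.094 (SE 0.14) in that fit. ENSGALG00000040263.3 and ENSGALG00000014184.4 were at -0.24 (SE 0.17 and 0.19). ENSGALG00000048286.1, inside ENSGALG00000035998.3, was at 0.25 (SE 0.18), with 73.2 and 68.1 CPM on the TGFB1 morpholino side of pairs 2 and 3 and 68.8 and 51.7 CPM on the control side. Differences of the size of these errors were not detectable with these pairs.

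The lowest fitted values belonged to genes with few counts. ENSGALG00000047434.1 was at -1.10 (SE 0.50, adjusted p = 0.15), being lower on the TGFB1 morpholino side in pairs 1 and 2 (log2 ratios of -1.79 and -1.86) and higher in pair 3 (0.71). ENSGALG00000026991.3 was at -0.83 (SE 0.49, adjusted p = 0.276) and ENSGALG00000034905.2 at -0.67 (SE 0.39, adjusted p = 0.268), both lower on that side in pairs 2 and 3. ENSGALG00000047434.1 passed with all pairs and no filter on low counts (log2 -1.12, adjusted p = 0.0215 by edgeR) and without pair 3 (log2 -2.01, adjusted p = 0.00743), and the other two passed in none of the alternatives run.

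Summed over the 40 genes, the W-linked level was 1.18-fold higher on the TGFB1 morpholino side in pair 2 and 1.13-fold higher in pair 3, and 0.684-fold in pair 1 where few counts exist. A two-sided exact sign-flip test over 2 pairs cannot give a p below 0.5, so the sum was not tested. It follows ENSGALG00000035998.3. Without that gene the sum was 1226 and 1324 CPM on the TGFB1 morpholino side, against 1267 and 1288 CPM on the control side, ratios of 0.968 and 1.03.

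By direction alone, 9 of the 30 genes tested were higher on the TGFB1 morpholino side in both female pairs (30.0%, against 35.0% of all genes tested), 13 were lower in both (43.3%, against 34.6%) and 8 were split. In pair 2, 11 were higher and 19 lower. In pair 3, 15 were higher and 15 lower. The median log2 ratio of the 30 genes was -0.12 in pair 2 and 0.028 in pair 3, against medians over all genes tested of -0.0052 and 0.0097.

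The embryos of pairs 2 and 3 differed in these genes about as much as the sides did. The median absolute log2 difference of pair 3 from pair 2 was 0.32 on the TGFB1 morpholino side and 0.24 on the control side, against 0.24 and 0.22 over all genes tested. The median absolute log2 difference between the sides was 0.30 in pair 2 and 0.32 in pair 3, against 0.25 and 0.33 over all genes. Of the 30 genes 15 were higher in pair 3 than in pair 2 on both sides, against 31.6% of all genes, and 7 were lower on both sides, against 28.6%. ENSGALG00000030382.2 (3970486 to 4106227, plus strand) is an example, named after its values were seen. It had 14.0 CPM in pair 3 and 6.40 CPM in pair 2 on the TGFB1 morpholino side, and 13.3 CPM in pair 3 and 7.63 CPM in pair 2 on the control side, so that the embryos were farther apart than the sides.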

How the data were processed

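Read counts per gene in 6 poly(A) libraries were taken as deposited by the authors. Per the submitters' processing notes cutadapt, HISAT2 and featureCounts were used with the build galGal6. Their versions, the annotation and the strand and multi-mapping settings are not given in these sources. The libraries are strand-specific, per the labels' protocols. The merged exon length is a column the authors deposited with the counts. Groups follow the genotype label and pairs the number in the titles. Each pair is 1 embryo, per the labels' protocols, and its libraries deviated together from their group means (correlations of 0.492, 0.52 and 0.363, and of 0.258, 0.457 and 0.288 over autosomal genes). The p-values refer to these 3 embryos only, and for W-linked genes almost all counts come from pairs 2 and 3. The spread they are set against was drawn mostly from other genes. With all pairs the prior had 11 degrees of freedom on average, against 1 or 2 residual ones for each W-linked gene. In the fit on pairs 2 and 3 the prior weight was infinite.

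The analysis used edgeR 4.0.16 in R 4.3.3: filterByExpr, TMM, quasi-likelihood test with the pair as a block, Benjamini-Hochberg adjustment over 12736 genes. SE is the log2 fold change over the root of F. Ratios within pairs use a prior count of 2. The code was tested on simulated data. Alternatives used DESeq2 1.42.0 and limma 3.58.1.

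Named genes were, among the 40, the 10 highest by CPM, the 5 highest by RPKM, those called with all pairs or without pair 1, the 5 highest by count and by percentage in pair 1, the 3 at each end of the log2 fold change and the 2 on each side of the minimum of 20 counts. The genes and lists were chosen with earlier results of these data known. Gene lists and cell type markers fixed by symbol could not be used, as 0 IDs matched.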

Additional observations from a re-analysis of the deposited data

How the results depend on the processing

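Of the W-linked genes 2 were called higher and 0 lower with all 3 pairs by edgeR; shares in parentheses are those of all genes tested. The count of higher genes was 1 with DESeq2 size factors (6.52%), 1 with TMM on autosomal genes (6.25%) and 1 by the DESeq2 Wald test (3.99%). With no filter on low counts it was 4 of 40 genes (6.07%), with ENSGALG00000041500.3 and ENSGALG00000050905.1 added (the last named after its values were seen). Of the 32 counts of ENSGALG00000050905.1, 27 came from the TGFB1 morpholino library of pair 2. With no replicate block 0 genes were called higher (2.12%) and 0 lower (3.35%). ENSGALG00000033705.3 was the 1 gene called lower by limma-voom (9.19%) and at a false discovery rate of 0.1 (12.5%). With no filter 2 of 40 were lower (7.87%), that gene and ENSGALG00000047434.1. Without 1 pair at a time 1 to 4 were higher (3.53% to 7.42%) and 0 to 2 lower (5.25% to 10.4%), the most without pair 1. Without pair 2 or pair 3 a single female embryo is left, so those calls lean on other genes. The median log2 fold change stayed between -0.12 and -0.024. The log2 change of the summed level was -0.047 in pair 2 and 0.039 in pair 3 without the gene with the most counts, against 0.23 and 0.18 with it, and 0.12 in pair 3 with raw library totals. The 5 genes with the most counts in each library of pairs 2 and 3 held 76.2% of the counts on average. Ranked per kilobase of exon, the leading 5 were partly other genes and held 80.2% of that sum. The levels in pair 1 stayed within counting error when the minimum count was 10 or 50 or overlapping genes were left out. Directions turned for ENSGALG00000031327.2 with DESeq2 (0.30) and for ENSGALG00000043758.3 with limma-voom (0.0117), with no replicate block (0.0914) and without pair 1 (0.0943). The direction of ENSGALG00000041500.3 turned without pair 2 (-0.33). None of these values passed. ENSGALG00000043758.3 kept its direction without pair 2 (-0.11) and without pair 3 (-0.0922). ENSGALG00000041500.3 kept its direction without pair 1, where it passed (1.72). ENSGALG00000041221.3 passed in 10 of 11 alternatives, the exception being that with no replicate block. The alternative at a false discovery rate of 0.1 is the main fit at a looser cut, so the pass there was fixed in advance. Those without pair 2 or pair 3 hold 1 female embryo each. The cause of these changes was not tested.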
